A study of Homo sapiens with 6 samples.

Results

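The canonical Wnt pathway was followed in HCT116, a human colorectal carcinoma line with a mutant beta-catenin, through 10 genes taken from the 58780 human genes of the deposited tables. They were matched by symbol in GENCODE release 29, a rule that sets no threshold on a measured value. They are the core genes CTNNB1, APC, AXIN1 and TCF7L2, and AXIN2, LGR5, LEF1, ASCL2, RNF43 and ZNRF3, known as pathway targets or intestinal stem cell genes. The auxin group had 3 libraries from cells treated for 16 h and the DMSO group 3 libraries, each numbered as biological replicate 1, 2 or 3. Auxin is a plant hormone that, in engineered cells, sends degron-tagged proteins to the proteasome. Which protein was tagged, if any, the clone and the length of the DMSO treatment are not stated in the labels.

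In this pathway a cytoplasmic destruction complex, built on the scaffolds APC and axin, marks beta-catenin for degradation until a Wnt ligand binds Frizzled and LRP receptors. Stabilised beta-catenin enters the nucleus and activates genes through TCF and LEF proteins. In the intestinal crypt the pathway maintains stem cells, and mutations that stabilise beta-catenin are common in colorectal cancer.

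Library totals of expected counts (estimated reads) spanned 234037969 to 625895062, with the highest total of each group in replicate 1. All 5 colorectal epithelial markers (EPCAM, KRT8, KRT18, KRT19 and CDH1) were present, and their summed level was 2720 to 3081 CPM in DMSO and 3676 to 3966 CPM after auxin. CPM is the count relative to the library size, scaled with edgeR's TMM factors. By the quasi-likelihood test of edgeR, at an adjusted p under 0.05, all 5 were called higher after auxin, beside 25.4% of all genes tested. All 5 calls were lost in limma-trend fits to TPM, abundance per transcript length, without a replicate block. The calls of EPCAM, KRT8 and CDH1 were lost in the TPM fit with the block too. Those of EPCAM and KRT18 were also lost without DMSO replicate 1 or 2 or auxin replicate 2 or 3. Of 8 stromal, endothelial and leukocyte markers, 3 (COL1A2, DCN and PTPRC) were below the expression filter, PDGFRB was higher and CD68 lower after auxin, and with the replicate block COL1A1 was lower too (edgeR adjusted p 0.000111). Their summed level was 61.2 to 68.0 CPM in DMSO and 19.3 to 24.02 CPM after auxin, of which CD68 made up most. The part of these marker changes in the results on Wnt genes was not tested.

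Of the 10 genes, 7 passed the expression filter and 3 rose after auxin: RNF43, CTNNB1 and TCF7L2, by 1.24 to 1.38 times. In edgeR's quasi-likelihood test without a replicate block none was called lower, and ZNRF3 alone was lower at an unadjusted p under 0.05 (p 0.0316). With the replicate number as a block the same test called 4 higher, APC added, and 1 lower, ZNRF3, which DESeq2 also called lower. AXIN1 and AXIN2 passed in neither edgeR fit. The count of 3 among 7 stands beside a background in which 52.3% of all 19725 genes tested were called, 25.4% as higher and 26.9% as lower. With upper-quartile factors in place of TMM, 59.7% of the called genes were higher, against 48.5% here, and the median gene moved up by 0.12 on the log2 scale. Auxin and DMSO libraries had non-overlapping CPM in 4 of the 7, against 60.3% of all genes tested. The changes were small for this data set: the median absolute log2 fold change over all genes was 0.44, and RNF43 was the only one of the 7 above it. In RNA from whole cultures, fewer cells expressing a gene and less RNA per cell cannot be told apart.

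**Figure D1:**
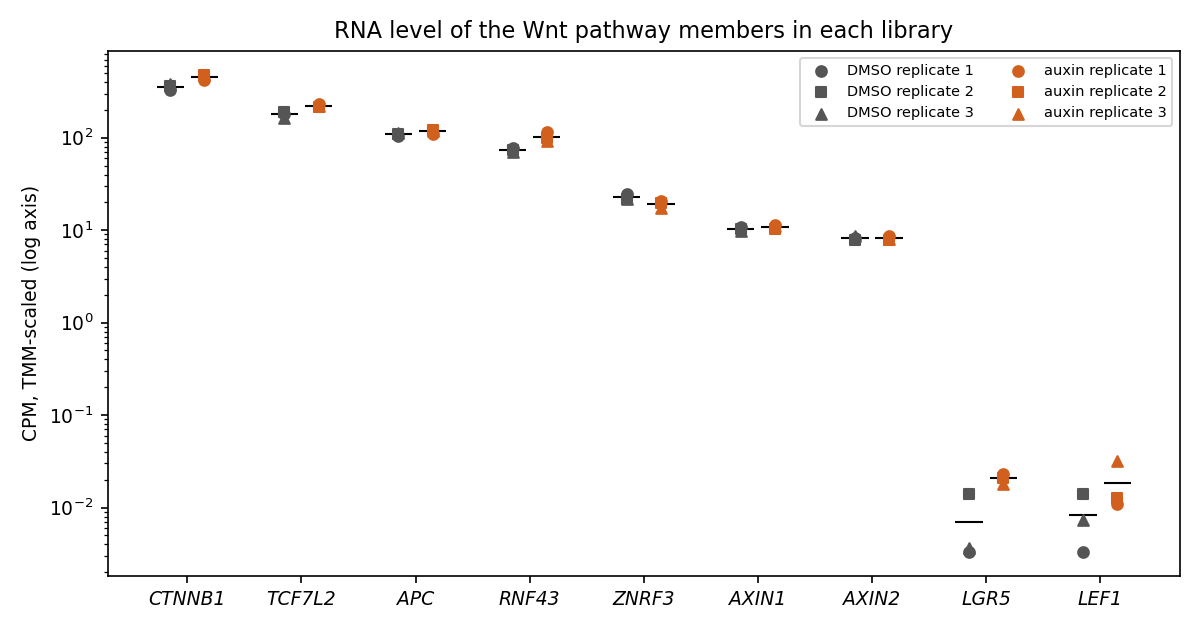
CPM (log axis, TMM-scaled) of 9 genes in each of the 6 libraries, grey for DMSO and orange for auxin, with symbols for the replicate number and a black line at the group mean. ASCL2 is not drawn because it had 0 counts in 4 libraries. LGR5 and LEF1 lie at or below 0.0316 CPM in every library, and the other 7 genes at or above 7.76 CPM.

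LGR5, ASCL2 and LEF1 were at the limit of detection, whereas 10 of 14 listed intestinal stem cell genes passed the filter. LGR5 (ENSG00000139292.12, chromosome 12, 71439770 to 71586310), the R-spondin receptor that marks crypt base stem cells, had 2, 4 and 1 counts in DMSO replicates 1, 2 and 3 and 15, 5 and 4 counts after auxin. ASCL2 (ENSG00000183734.4, chromosome 11, 2268495 to 2270952), a transcription factor of the same cells, had 2 counts in DMSO replicate 1, 3 in auxin replicate 3 and 0 in the other 4 libraries. LEF1 (ENSG00000138795.9, chromosome 4, 108047545 to 108168956), the TCF family member induced by the pathway in many tissues, had 2, 4 and 2 counts in DMSO and 7, 3 and 7 after auxin.

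These levels reached at most 0.0232 CPM for LGR5, 0.0135 CPM for ASCL2 and 0.0316 CPM for LEF1. A count of 3 corresponds to 0.00464 to 0.0135 CPM, depending on the library, a limit that covers counting error only. In CPM, LGR5 was higher in each auxin library than in any DMSO library, on 1 to 15 counts. Without the filter on low counts the edgeR adjusted p was 0.166 for LGR5, 0.397 for LEF1 and 0.738 for ASCL2, so no change was called on these few counts. On the opposite strand LGR5 shares 2129 bases with TSPAN8, which lay at 0.00737 to 0.0213 CPM in DMSO and 0.0634 to 0.0903 CPM after auxin. Whether the authors' counting used the strand is not given in the sources used here.

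RNF43 and ZNRF3 encode related membrane ubiquitin ligases that remove Frizzled receptors from the cell surface and that R-spondin and LGR receptors inhibit. RNF43 (ENSG00000108375.12, chromosome 17, 58352500 to 58417595) was at 77.6, 74.3 and 70.4 CPM in DMSO replicates 1, 2 and 3 and at 114, 100 and 92.1 CPM after auxin. All auxin libraries lay above all DMSO libraries. The mean rose from 74.1 ± 3.6 to 102.1 ± 11.1 CPM (SD, n = 3 each), with a log2 fold change of 0.46, an SE of 0.09 and an adjusted p by edgeR of 0.00363, and the gene was higher in 3 of 3 same-numbered pairs. RNF43 shares its whole span with the read-through gene AC004687.2 on the same strand, which had 2.24 CPM in DMSO and 2.96 CPM after auxin on average. The posterior SD of the RNF43 count, a measure of uncertain read assignment, was at most 0.414% of the count.

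ZNRF3 (ENSG00000183579.15, chromosome 22, 28883592 to 29057487) was at 24.7, 21.99 and 21.9 CPM in DMSO and at 20.9, 19.6 and 17.4 CPM after auxin. The groups did not overlap, and the auxin library was the lower one in 3 of 3 same-numbered pairs. Its log2 fold change was -0.24 (SE 0.09) with an edgeR adjusted p of 0.0586, past no threshold. With the replicate number as a block the value was -0.24 with an edgeR adjusted p of 0.00121, and DESeq2 gave an adjusted p of 0.0460. LGR4, the related R-spondin receptor, had a mean of 20.1 CPM with DMSO and of 19.6 CPM with auxin (edgeR adjusted p 0.776).

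CTNNB1 (ENSG00000168036.17, chromosome 3, 41194741 to 41260096) encodes beta-catenin, the transcriptional effector of the pathway. It was at 326, 366 and 383 CPM in DMSO and at 422, 481 and 471 CPM after auxin, with every auxin library above every DMSO library. The mean rose from 357.9 ± 29.3 to 458.1 ± 31.6 CPM (SD, n = 3 each), with a log2 fold change of 0.36, an SE of 0.09 and an adjusted p by edgeR of 0.0109. The log2 ratios of the same-numbered pairs were 0.37, 0.40 and 0.30. The gene overlaps ULK4 by 13498 bases on the opposite strand, which averaged 5.30 CPM with DMSO and 6.69 CPM with auxin.

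TCF7L2 (ENSG00000148737.16, chromosome 10, 112950250 to 113167678) encodes the main DNA-binding partner of beta-catenin in intestinal epithelium. It was at 182, 189 and 165 CPM in DMSO and at 229, 214 and 220 CPM after auxin. The groups were apart, and the mean rose from 178.9 ± 12.5 to 221.3 ± 7.4 CPM (SD, n = 3 each), with a log2 fold change of 0.31, an SE of 0.07 and an adjusted p by edgeR of 0.00835. The log2 ratios of the pairs were 0.33, 0.18 and 0.42.

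On the TPM scale these 3 rises did not pass the test. TPM is abundance per transcript length, as deposited by the authors. In limma-trend on log2(TPM + 1) the log2 fold changes were 0.42 for RNF43, 0.17 for CTNNB1 and 0.17 for TCF7L2, with adjusted p of 0.174, 0.583 and 0.733. TPM values were highest in replicate 1 of both groups: CTNNB1 was at 186.8, 122.4 and 131.6 TPM in DMSO and 188.5, 144.7 and 158.0 TPM after auxin. With the replicate number as a block on log2(TPM + 0.1), a fit chosen after the data were seen, RNF43 passed (limma adjusted p 0.00203) and CTNNB1 (0.142) and TCF7L2 (0.198) did not.

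The scaffolds of the destruction complex did not pass the test at the gene level. APC (ENSG00000134982.16, chromosome 5, 112707498 to 112846239) was at 105, 110 and 113 CPM in DMSO and 111, 122 and 118 CPM after auxin, with overlapping groups and a log2 fold change of 0.10, an adjusted p of 0.217 by edgeR and an SE of 0.06. The same change passed with the replicate block (edgeR adjusted p 0.0198) and, at 0.22, with upper-quartile factors (edgeR adjusted p 0.00612), while its sign reversed on the TPM scale. AXIN1 (ENSG00000103126.14, chromosome 16, 287440 to 352673) was at 10.9, 10.2 and 9.85 CPM in DMSO and 11.5, 10.3 and 11.0 CPM after auxin. Its groups overlapped, and the log2 fold change of 0.08 (SE 0.08, adjusted p 0.442 by edgeR) was about the size of its error.

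AXIN2 (ENSG00000168646.12, chromosome 17, 65528563 to 65561647), the second axin and a direct target widely used as a reporter of pathway activity, was at 8.30, 7.79 and 8.62 CPM in DMSO. After auxin it was at 8.71, 7.76 and 7.95 CPM, inside and around the DMSO range. Its log2 fold change was -0.02 (SE 0.09, edgeR adjusted p 0.887), and 97.8% of all genes tested had a larger absolute change. The sign turned under upper-quartile factors, at 0.11. Over the 6 libraries, the genes whose log2 CPM followed AXIN2 most closely were CENPBD1P1, UBE3C and TTC14, with Pearson r of 0.95, 0.94 and 0.93 among 12847 genes compared, a description over 6 points that share their libraries.

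Per length, the order of the levels was the same in every library for the 4 most abundant genes: CTNNB1, TCF7L2, RNF43 and then APC. In DMSO their means were 146.9 ± 34.8, 75.3 ± 27.7, 17.9 ± 3.7 and 15.4 ± 2.7 TPM (SD, n = 3 each). RNF43 and APC differed by less than the spread between DMSO libraries. ZNRF3, AXIN2 and AXIN1 followed at 3.47 ± 1.03, 3.50 ± 0.87 and 3.32 ± 0.93 TPM, and their order changed from library to library.

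At the transcript level, some estimates changed by more than the total of their gene. The 10 genes have 149 annotated transcripts, of which 71 passed the filter, 7 were called higher after auxin and 1 lower, in an edgeR quasi-likelihood fit over 83072 transcripts. The called ones were 11.3% of the tested transcripts of these genes. Over all transcripts tested, 19.7% were called, 8.43% as higher and 11.2% as lower. The higher transcripts were CTNNB1-228 and CTNNB1-252, TCF7L2-219 and TCF7L2-205, and RNF43-208, RNF43-201 and RNF43-204, all of genes that were called higher themselves. The lower was AXIN2-201, of a gene that was not called. AXIN2-201, RNF43-201, TCF7L2-219 and TCF7L2-205 fell outside the rule for naming transcripts, at least 10% of the gene's TPM in a group mean. AXIN1-201, CTNNB1-250 and CTNNB1-203 did too, and all of these are described after their values were seen. Only CTNNB1-228, TCF7L2-219 and TCF7L2-205 were called in the fit and in all 10 alternatives. With the replicate block 9 were higher and 2 lower, adding TCF7L2-217 and CTNNB1-203 as higher (edgeR adjusted p 0.0208 and 0.0194, against 0.104 and 0.336) and CTNNB1-250 as lower (0.0460, against 0.122).

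AXIN2-201 was at 1.35, 0.791 and 1.01 CPM in DMSO and at 0.0422, 0 and 0 CPM after auxin, with a fitted log2 fold change of -5.87 (adjusted p 0.0233 by edgeR, SE 1.25). Over the 8 alternatives that kept this transcript the fitted value was -11.4 to -5.42 and the adjusted p 0.00338 to 0.0698, and with 0 counts in 2 of the auxin libraries its exact size is not determined. The main form, AXIN2-209, was at 5.45, 5.75 and 6.33 CPM in DMSO and 7.34, 6.65 and 6.89 CPM after auxin (edgeR adjusted p 0.200). Leaving out a single library ended the call of AXIN2-201 in 5 of 6 cases, those without any one DMSO library or without auxin replicate 2 or 3.

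AXIN1 has the forms AXIN1-201 with 11 exons and AXIN1-202 with 10, which differ in an internal coding exon and in the length of the end exons. AXIN1-201 was at 0.565, 0.288 and 0.206 CPM in DMSO and 0.120, 0.0343 and 0.184 CPM after auxin, without passing the test (edgeR adjusted p 0.154). The internal exon of AXIN1-201 is printed here because transcripts with it took a smaller share after auxin. It was read from the GENCODE release 29 transcripts on GRCh38, 5′ to 3′ on the minus strand of the genome. Capitals mark the exon, and the 20 bases on either side in lower case belong to the neighbouring exons.
AXIN1-201 exon 9: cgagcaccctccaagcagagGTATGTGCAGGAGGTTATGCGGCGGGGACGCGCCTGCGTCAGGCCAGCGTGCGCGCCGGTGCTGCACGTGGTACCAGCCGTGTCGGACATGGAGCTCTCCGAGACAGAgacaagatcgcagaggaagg

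The exon (chr16:291190-291297) has 108 bases, a multiple of 3, so that skipping it keeps the reading frame, and its GC content was 67.6%. The AXIN1 exon was in 5.24%, 2.88% and 2.53% of spanning TPM in DMSO and in 1.60%, 1.15% and 2.03% after auxin. DMSO replicate 1 stood above the other libraries, and no auxin library reached the lowest DMSO value. The class rested on 85.43 counts in DMSO replicate 3 and 66.21 in auxin replicate 3. The summed posterior SDs of these counts were 27.25 and 21.85, so the gap between these libraries lies within the uncertainty of read assignment. This class also holds AXIN1-204, a form without a coding sequence that covers the exon by keeping the introns on both sides. The exon classes of AXIN1 and TCF7L2 were formed after the values of the transcripts had been seen, and their shares are given without a test.

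**Figure D2:**
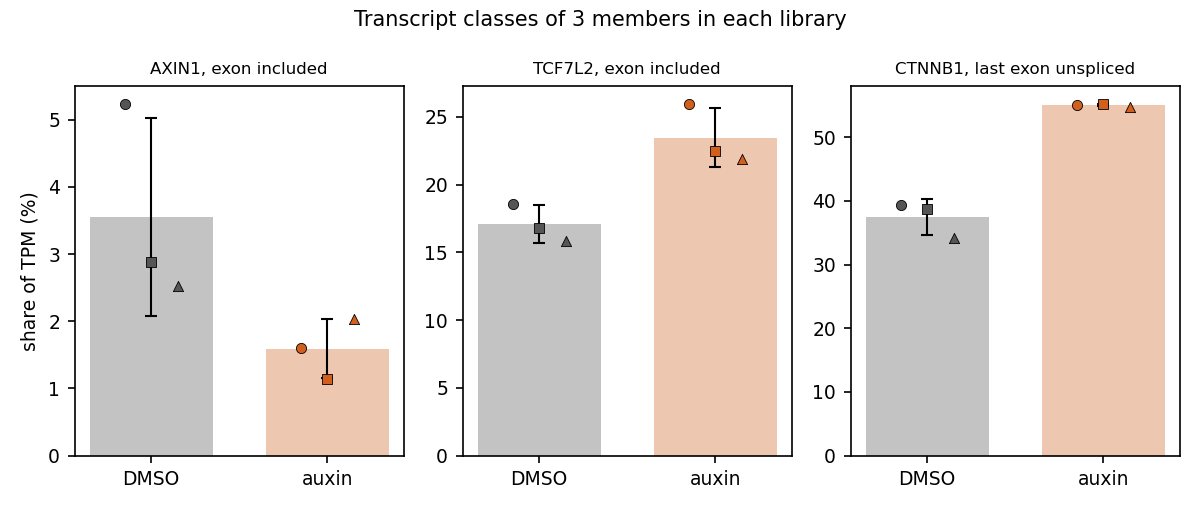
Share of TPM (%) in transcripts with an AXIN1 or TCF7L2 cassette exon, among transcripts spanning it, and of CTNNB1 transcripts with an unspliced last exon, among those that extend past the stop codon. Bars are means, error bars SDs (n = 3), and points the libraries (circle, square and triangle for replicates 1, 2 and 3). In each panel no auxin library overlaps a DMSO library, and the CTNNB1 share goes from a mean of 37.5% to 55.1%. For AXIN1 the gap between the nearest libraries lies within the uncertainty of read assignment. For the CTNNB1 share that uncertainty was not assessed.

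TCF7L2-219 and TCF7L2-205, called higher without the replicate block, both contain a cassette exon. TCF7L2-219 was at 11.1, 10.3 and 9.43 CPM in DMSO and 21.2, 19.6 and 19.7 CPM after auxin, and rose by 0.97 on the log2 scale (SE 0.10, adjusted p 0.00200 by edgeR). TCF7L2-205 was at 6.62, 7.86 and 6.28 CPM in DMSO and 14.3, 12.8 and 12.8 CPM after auxin, and rose by 0.94 on the log2 scale (SE 0.13, adjusted p 0.00495 by edgeR). The abundant forms TCF7L2-220 and TCF7L2-218 gave edgeR adjusted p of 0.580 and 0.763. TCF7L2-217, which lacks the exon, was at 11.0, 24.2 and 19.4 CPM in DMSO and 28.2, 44.2 and 30.7 CPM after auxin, a difference of 0.92 on the log2 scale that passed with the block and not without it. The exon is shown here because TCF7L2-219 and TCF7L2-205 hold it, as does TCF7L2-202, and the abundant TCF7L2-220 and TCF7L2-218 do not. It is exon 5 of TCF7L2-219 (chr10:113089397-113089540, plus strand, 144 bases), and TCF7L2-205 uses it without the first 3 bases.
TCF7L2-219 exon 5: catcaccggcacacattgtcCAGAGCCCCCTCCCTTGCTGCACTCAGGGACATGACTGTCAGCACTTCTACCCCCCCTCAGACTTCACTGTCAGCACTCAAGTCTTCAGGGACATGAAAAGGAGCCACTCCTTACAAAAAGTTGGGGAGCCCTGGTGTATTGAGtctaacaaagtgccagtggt

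Transcripts with this exon took 18.6%, 16.8% and 15.8% of the spanning TCF7L2 TPM in DMSO and 25.98%, 22.5% and 21.9% after auxin. The lowest auxin value stood above the highest DMSO value, and replicate 1 was highest in both groups. The sum rests on 3 transcripts with the exon and 11 without it.

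CTNNB1-228, a protein-coding form of 16 exons, was at 83.1, 83.1 and 84.5 CPM in DMSO and 193, 189 and 185 CPM after auxin. Every auxin library lay above every DMSO library, and the log2 fold change was 1.18 (SE 0.06, edgeR adjusted p 0.000233), larger than the 0.36 of the whole gene. CTNNB1-252, another protein-coding form, rose by 0.51 (SE 0.14, edgeR adjusted p 0.0480), a call lost with RLE size factors and without any single library. The first of them ends in a single unspliced exon that holds the stop codon and the 3′ untranslated region, whereas CTNNB1-252 and CTNNB1-202 splice out an intron after the stop codon. Among CTNNB1 transcripts that extend past the stop codon, those with the unspliced last exon took 39.4%, 38.8% and 34.2% of TPM in DMSO and 55.1%, 55.3% and 54.8% after auxin. That class was formed after the values were seen. The spliced class holds CTNNB1-250, with 4.59%, 2.91% and 9.30% of the gene's TPM in DMSO and 0%, 0% and 0.22% after auxin. The posterior SD of its count reached 1503 in a library, and the uncertainty of read assignment in these class shares was not assessed. Transcripts that end before or at the stop codon, such as CTNNB1-256, cannot be placed in either class and made up 38.6% to 45.6% of the gene's TPM in DMSO and 28.8% to 35.5% after auxin.

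The 3 RNF43 transcripts rose by 0.44 to 0.95 on the log2 scale. RNF43-208 was at 64.2, 61.1 and 59.6 CPM in DMSO and 93.9, 85.7 and 76.2 CPM after auxin (edgeR adjusted p 0.0204), and RNF43-201 at 9.44, 9.38 and 9.36 CPM in DMSO and 13.1, 12.1 and 13.2 CPM after auxin (edgeR adjusted p 0.0209). Their shares of the gene overlapped between the groups. For the short non-coding RNF43-204 the edgeR adjusted p was 0.0497. Of 10 alternatives, RNF43-208 was called in 6, RNF43-201 in 4 and RNF43-204 in 3. The calls of RNF43-201 and RNF43-204 were lost without any single library. For APC no transcript passed, and APC-201, which codes for the full-length protein, held 47.2% to 60.9% of the gene's TPM in DMSO and 42.0% to 60.9% after auxin. ZNRF3 was nearly all ZNRF3-203, with at least 96.0% of TPM in each library.

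Promoter windows in RefSeq (GRCh38.p14), from 250 bases before to 50 bases after a gene start, were searched for CTTTGAT, the core TCF/LEF motif, on both strands. There were 10 windows for 6 of the genes, and 0 of them held it, beside 2.62% of the 35116 windows in the table. So few windows cannot tell 0 from a share of 2.62%, and nothing follows from this on TCF/LEF sites of these genes. AXIN2, LGR5, ASCL2 and ZNRF3 had no window.

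The rest of the pathway was described from lists of 91 other genes. Of the 70 that passed the filter, 20 were called higher and 25 lower (edgeR), beside 25.4% and 26.9% of all genes, with a median log2 fold change of -0.04 against 0.02 over all genes tested. With the replicate block 26 were higher and 28 lower, adding TNKS, WNT7B, WNT16, CTNNBIP1, CD44 and TNFRSF19 as higher and BTRC, WNT4 and WNT6 as lower. The Dishevelled genes, which relay the signal from the receptors, were all lower. DVL2 fell from 20.2 ± 1.3 to 1.34 ± 0.44 CPM, DVL3 from 61.3 ± 7.6 to 5.29 ± 1.49 CPM and DVL1 from 57.4 ± 10.2 to 7.14 ± 3.13 CPM (SD, n = 3 each). The log2 fold changes of DVL2 and DVL3 were -3.89 and -3.53. The edgeR adjusted p values of DVL2, DVL3 and DVL1 were 1.77e-05, 1.89e-05 and 0.000191, and the 16 alternatives kept these 3 calls.

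Of 16 genes tested for receptors and Dishevelled, 4 were higher, near the 25.4% of all genes, and 9 were lower, beside 26.9% of all genes. LRP5, a Wnt co-receptor, rose from 100.9 ± 4.9 to 188.6 ± 9.3 CPM, and FZD6, a Frizzled receptor, from 90.6 ± 4.4 to 122.2 ± 5.1 CPM (SD, n = 3 each; edgeR adjusted p 4.01e-05 and 0.000982), and the call of FZD6 was lost in the TPM fits without the block. In the destruction complex 2 of 12 were higher and 2 lower, beside 25.4% and 26.9% of all genes, among them GSK3A, a kinase that phosphorylates beta-catenin, which fell from 98.8 ± 8.0 to 43.8 ± 3.6 CPM (SD, n = 3 each; edgeR adjusted p 3.97e-05). Its paralog GSK3B fell by 0.19 on the log2 scale (edgeR adjusted p 0.0263), a call that upper-quartile factors, both unblocked TPM fits and the omission of any single library ended.

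Other TCF genes moved opposite to TCF7L2. TCF7 fell from 64.6 ± 6.2 to 47.7 ± 2.8 CPM and TCF7L1 from 15.7 ± 1.7 to 5.21 ± 0.97 CPM (SD, n = 3 each), with log2 fold changes of -0.44 and -1.59 and edgeR adjusted p of 0.00382 and 0.000138. In limma-trend on TPM without the block the call of TCF7 was lost. Among 14 nuclear partners tested, 6 were higher and 5 lower, CTNNB1 and TCF7L2 included, beside 25.4% and 26.9% of all genes.

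Of 16 known target genes tested, 6 were higher and 4 lower, beside 25.4% and 26.9% of all genes, and with the replicate block CD44 and TNFRSF19 were also higher and ZNRF3 lower. MYC, a growth-promoting transcription factor, rose from 167.2 ± 5.3 to 402.7 ± 14.9 CPM and NKD1, a feedback inhibitor of the pathway, from 20.4 ± 1.2 to 41.9 ± 2.3 CPM (SD, n = 3 each), with edgeR adjusted p of 7.48e-06 and 3.24e-05. The calls of NKD1 and of SOX9 were lost in the TPM fits without the block. CCND1, which encodes cyclin D1, fell from 1074 ± 3.2 to 632.3 ± 11.0 CPM and the receptor gene EPHB3 from 4.89 ± 0.52 to 1.11 ± 0.04 CPM (SD, n = 3 each; edgeR adjusted p 4.49e-05 and 1.54e-05). Among 10 intestinal stem cell genes tested, 5 were higher and 1 lower, beside 25.4% and 26.9% of all genes, with SOX9, a crypt transcription factor, up by 0.64 and MSI1, an RNA-binding protein gene, down by 1.44 on the log2 scale (edgeR adjusted p 0.000704 and 0.000453). The 5 higher stem cell genes, RGMB, SOX9, BMI1, PROM1 and RNF43, all lost the call in the TPM fits without the block. RGMB and BMI1 lost it in the TPM fit with the block too, whereas MSI1 kept its call in every alternative. OLFM4 and SMOC2, markers of LGR5-positive cells, had at most 1 count per library.

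**Figure D3:**
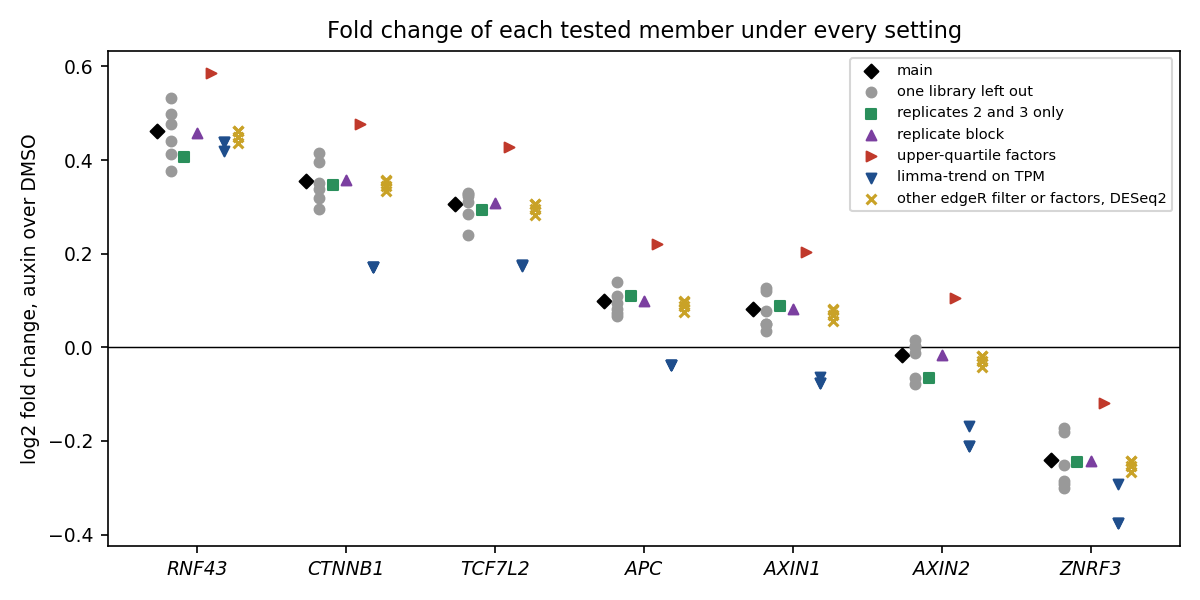
log2 fold change of the 7 tested genes (auxin over DMSO) in the main edgeR fit (black) and under 16 alternatives. RNF43, CTNNB1 and TCF7L2 lie above 0 and ZNRF3 below 0 under all of them, whereas APC, AXIN1 and AXIN2 change sign.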

How the data were processed

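RNA-seq of 6 HCT116 libraries was analysed, 3 given auxin for 16 h and 3 DMSO, from stranded, ribosomal RNA-depleted libraries per the labels' protocols. Per the file headers, the authors deposited expected counts (estimated, not normalized), TPM, the percent of each gene's TPM held by a transcript, and a posterior SD of each count. STAR, DESeq2, GRCh38 and bcl2fastq 2.20 are named in the submitters' processing notes without a role. The counter, the annotation and the use of strand are not given in the sources used here. All 58780 gene IDs and 206761 transcript IDs were found in GENCODE release 29, and 746 other entries, 6.88 CPM, were left out.

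Rounded expected counts were tested over all genes, and over all transcripts, with edgeR 4.0.16 (R 4.3.3): filterByExpr with a minimum count of 10, TMM factors, glmQLFit and glmQLFTest, Benjamini-Hochberg adjusted p under 0.05. The fits were first tested on simulated data, in which 200 genes and 2000 transcripts were altered. There the gene fit called 51.5% of the genes altered 2-fold and 23.6% of those altered 1.5-fold, and 8.64% of the genes called were unaltered. The transcript fit called 18.9% of the transcripts altered 4-fold and 1.16% of those altered 2-fold, and 5.13% of the transcripts called were unaltered. A gene or transcript that did not pass may therefore still have changed. The rates need not hold for the real data, where 10321 genes and 16330 transcripts were called, far more than were altered in the simulation. Alternatives used limma 3.58.1 and DESeq2 1.42.0. Deviations from the group means of same-numbered libraries correlated at 0.68, 0.29 and 0.31 across genes. Differently numbered ones correlated at -0.50 to 0.34, and auxin replicate 2 with DMSO replicate 3 (0.34) exceeded both of their own pairs. Since every same-numbered pair was over 0.1, the numbers were taken to pair the samples. Only the pair of replicate 1 stood above all differently numbered ones, so the pairing of replicates 2 and 3 is not established. Replicate 1 also had the highest library total in both groups, so pairing and depth cannot be told apart for it. The block fit, which rests on this pairing, is given where it changes a call among the genes and transcripts described.

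The 10 genes and the lists were chosen with earlier results of these data known. Named genes were the 10, and in each list up to 3 called genes in each direction with the largest change and a mean CPM of at least 1, of which examples are given. Genes like LGR5 were not ranked, since LGR5 was below the filter. No library was a repeat deposit of another (chi-square over degrees of freedom of 34.8 to 528.0 within groups), which does not show whether they are biological or technical repeats. Each library is labelled a biological replicate, and whether these were separate cultures is not given, so the p-values may measure technical spread only. An item besides the exons shown, and the results that need it, are not reported here.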

Additional observations from a re-analysis of the deposited data

How the results depend on the processing

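Over the 16 alternatives for genes, RNF43 stayed called in 14, CTNNB1 and TCF7L2 in 13 each and ZNRF3 became called in 5, all with the sign given. In limma-trend fits to TPM with a pseudocount of 1 and of 0.1, 0 of the 10 genes were higher and 0 lower, also at an unadjusted p under 0.05. There, 970 and 1017 of all genes were higher and 2966 and 3223 lower, and of the other pathway genes 4 and 4 were higher and 12 and 14 lower. On those scales APC was at -0.037 and -0.039 and AXIN1 at -0.062 and -0.076. With the replicate block added on log2(TPM + 0.1), a fit chosen after the data were seen, 1 of the 10 was higher and 1 lower, APC was at -0.039 and AXIN1 at -0.076. The cause of these differences was not tested.

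1 of the 10 genes, ZNRF3, was lower with DESeq2, with the replicate block in edgeR (4 higher, APC among them) and with replicates 2 and 3 only. Upper-quartile factors turned AXIN2 to 0.11. Without single libraries, 3 of the 10 genes were higher in each case and 0 to 1 lower (1 without auxin replicate 1), and AXIN2 ranged from -0.078 to 0.016. The transcripts called higher numbered 3 to 4 and those lower 0 to 1 without single libraries, 9 were higher and 2 lower with the replicate block, and 0 were lower (2 at an unadjusted p under 0.05) in edgeR when counts were divided by the overdispersion of read assignment, a fit in which AXIN2-201 fell below the filter. The replicate block changed the call of ZNRF3 and APC and of no other of the 10 genes, of the 3 transcripts and 9 other pathway genes named above, and of COL1A1 and LYZ (edgeR adjusted p 0.0185, higher) in the marker lists. LGR5, LEF1 and ASCL2 had at most 15 counts per library and did not pass the filter of the main fit.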
